A study of Homo sapiens with 33 samples.

Results

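The effect of FOXL2 induction at day 14 of gonadal differentiation was compared with its effect at day 6, gene by gene, as the difference (day 14 IND minus day 14 CTRL) minus (day 6 IND minus day 6 CTRL) on the log2 scale. The comparison took 12 of the 33 RNA-seq libraries of the series, 3 in each of 4 groups. All of them came from H9-DDdCas9VP192-FOXL2 clone 24, a single clone derived from H9, an established human embryonic stem cell line, that carries a destabilised dead Cas9 activator and guides directed to the FOXL2 promoter. CTRL cells were differentiated without doxycycline (DOX) and trimethoprim (TMP). IND cells received both compounds from day 4, so the 2 days compared lie 2 and 10 days after their addition. The induction effect therefore holds DOX and TMP as well as FOXL2, since no group received the compounds without the activator. The 3 libraries of a group are technical replicates of 1 biological replicate, so each p covers the spread between those libraries alone. They held 24291092 to 51900017 counts, 3 counts in a library correspond to 0.0593 to 0.124 CPM (counts scaled to the size of the library), and no library stood apart from its group (median correlation with its replicates 0.983 to 0.987).

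FOXL2 is a forkhead transcription factor of ovarian supporting cells, where it keeps the granulosa cell fate and opposes the testis pathway led by SOX9. The supporting cells derive from the coelomic epithelium, which also gives rise to stroma and mesothelium. R-spondins, WNT ligands and BMP ligands signal between these layers. A culture of this kind is a mixture, and in bulk RNA fewer cells of a type cannot be told apart from less RNA per cell.

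The activator was directed to the region upstream of FOXL2, which is shown because it is the site at which, by design and beside the 2 compounds, IND cells differ from CTRL cells. The 250 bases before the RefSeq start of FOXL2 (GRCh38.p14, chr3:138947138-138947387, minus strand, written 5′ to 3′ in the sense of the gene) were 68.4% G or C:
FOXL2 upstream: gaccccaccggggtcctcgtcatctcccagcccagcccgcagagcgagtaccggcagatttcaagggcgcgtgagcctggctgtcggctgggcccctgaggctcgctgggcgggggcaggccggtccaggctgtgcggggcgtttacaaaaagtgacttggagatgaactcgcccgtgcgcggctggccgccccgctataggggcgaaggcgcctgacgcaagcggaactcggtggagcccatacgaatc

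The targeted gene was measured in every library. FOXL2 stood at 577, 546 and 464 CPM in day 6 IND and at 190, 183 and 151 CPM in day 14 IND. In CTRL it lay between 0.027 and 0.319 CPM, at most 12 counts in a library. All IND libraries were above all CTRL libraries on both days, and within IND the level fell by 1.60 on the log2 scale from day 6 to day 14 (SE 0.15, adjusted p = 7.12e-07). The induction effect itself did not pass the test for a difference between the days (log2 difference -0.75, SE 0.78, adjusted p = 0.823). On the log2(FPKM + 1) scale it did, at -1.55 (limma-trend, adjusted p = 0.000367). FOXL2NB, the neighbouring gene on the opposite strand, was at least 918-fold higher in IND at day 6 and at least 383-fold higher at day 14, set against a floor of 3 counts per library. LINC01391, downstream of FOXL2, was at least 553-fold and at least 205-fold higher.

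Across the 20584 genes tested, the induction effect differed between day 14 and day 6 in 537 (2.61%), by edgeR's quasi-likelihood test with a Benjamini-Hochberg adjusted p under 0.05. It was higher at day 14 in 274 (1.33%) and lower in 263 (1.28%), and 518 of the 537 were protein coding. The log2 difference reached 1 in either direction in 349 genes, 2 in 130 and 3 in 48, against a median of 0.02 over all genes. With library totals in place of the scaling factors, the split was 36.2% higher to 63.8% lower, in place of 51% to 49%. The daily effects that are compared passed the test in 823 genes (4%) at day 6, with 301 up (1.46%) and 522 down (2.54%), and in 1507 (7.32%) at day 14, with 595 up (2.89%) and 912 down (4.43%). The count of 537 fell on leaving out most of the single libraries. At day 6 it fell to 343 without CTRL replicate 3, and to 353 and 358 without IND replicates 2 and 3. At day 14 it fell to 317 without CTRL replicate 1, and to 376, 381 and 316 without IND replicates 1, 2 and 3. It rose to 639 without day 6 IND replicate 1 and to 688 without day 14 CTRL replicate 3.

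The 537 genes were sorted by their daily effects. A response was called growing when the day 14 effect passed the test and was the larger, fading when the day 6 effect passed and was the larger, and reversed when both passed with opposite signs. Induction effects that grew downward were the most frequent, with 186 genes, and 112 grew upward. A further 112 were lower in IND at day 6 and faded, 41 were higher at day 6 and faded, 34 reversed and 52 met no class. Growing and fading did not require the same sign on both days. The day 14 median was -0.28 for the upward fading class and 0.19 for the downward fading class. The day 6 median was 0.26 for genes that grew downward and -0.18 for those that grew upward. The plot of day 6 against day 14 effects shows the growing and fading classes on either side of the diagonal, as their definition requires.

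**Figure D1:**
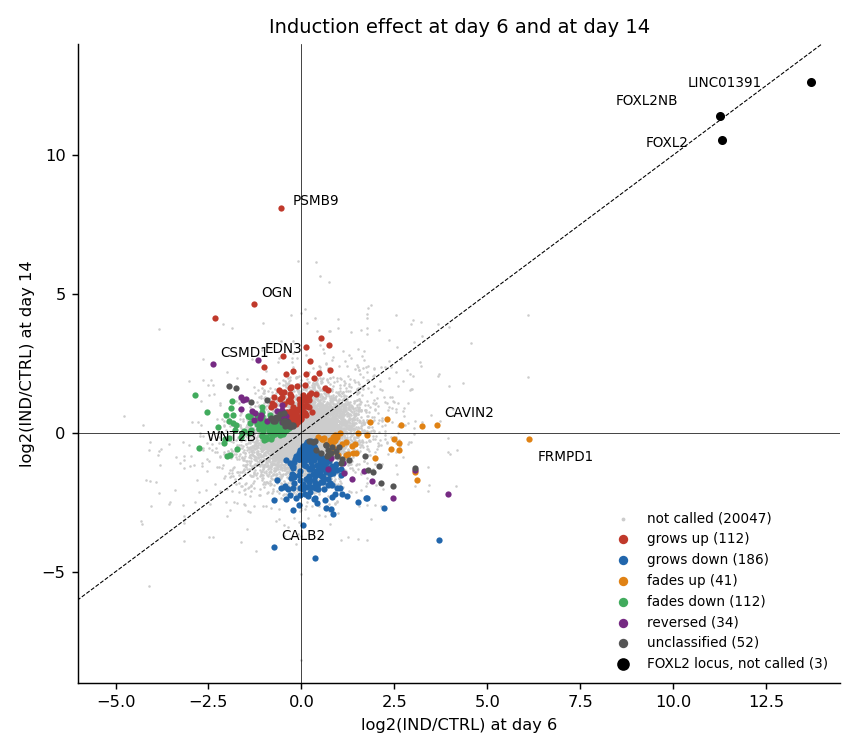
Each point is 1 of the 20584 genes tested, with log2(IND/CTRL) at day 6 on the x axis and at day 14 on the y axis. Coloured points are the 537 genes whose effect differed between the days, by response class; black points are FOXL2, FOXL2NB and LINC01391, near the dashed line of equal effects.

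The same difference can be read as the change from day 6 to day 14 in IND minus that in CTRL, which shows in which arm each class moved. Over this interval 8084 of all genes (39.3%) changed in CTRL and 8078 (39.2%) in IND, with 21% rising and 18.2% falling in CTRL and 21.6% rising and 17.7% falling in IND. In the class that grew downward the movement was mostly in CTRL: 171 of 186 genes rose in CTRL and 75 rose in IND, and the change was the larger in CTRL for 164. Their median change was 1.71 on the log2 scale in CTRL and 0.22 in IND. The fading upward class was similar, with 37 of 41 rising in CTRL, 23 in IND, and medians of 2.62 and 0.74. In the class that grew upward 81 of 112 genes rose in IND and 9 fell, while 28 rose and 40 fell in CTRL. The medians were 0.84 in IND and -0.23 in CTRL, and the change was the larger in CTRL for 37. Of the 112 genes that were lower in IND at day 6 and faded, 76 rose and 12 fell in IND, while 40 rose and 48 fell in CTRL. The medians were 0.91 in IND and -0.15 in CTRL, and the change was the larger in CTRL for 43. The plot of both arms shows the growing and fading classes on either side of the line of equal change, which their definition fixes.

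**Figure D2:**
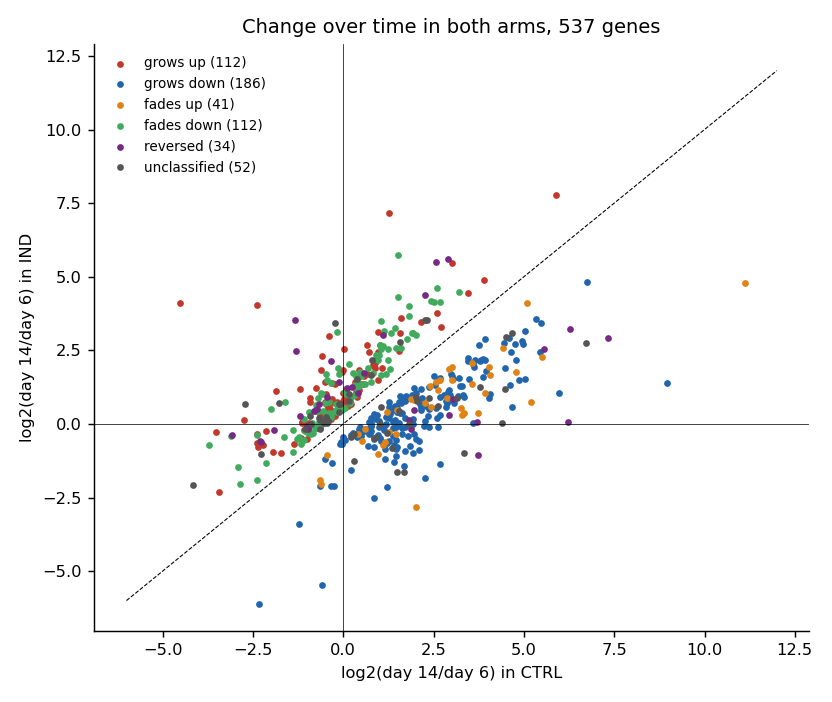
The log2 change from day 6 to day 14 in CTRL (x axis) and in IND (y axis) for the 537 genes, coloured by response class. Points below the dashed line had a more positive change in CTRL than in IND, and 164 of the 186 genes that grew downward changed more in CTRL than in IND.

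Among genes whose induction effect grew upward, OGN had the largest log2 difference, leaving out those whose average log2 CPM was below 1. It is the gene of osteoglycin, a small leucine-rich proteoglycan of connective tissue. OGN was at 0.0602, 0.24 and 0.12 CPM in day 6 CTRL and at 0.0268, 0.118 and 0.0228 in day 6 IND. At day 14 it was at 0.378, 0.249 and 0.414 CPM in CTRL and at 9.96, 5.25 and 10.7 in IND. The day 6 groups overlapped near the floor and the day 14 groups did not, and the log2 difference was 5.90 (SE 0.83, adjusted p = 0.000634). OGN lies within CENPP on the opposite strand, which had 316% of its counts, and the libraries do not keep the strand.

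FSHR, the receptor for follicle-stimulating hormone on granulosa cells, differed in another way. It was at 4.27, 4.95 and 4.6 CPM in day 6 CTRL and at 3.88, 2.41 and 3.51 in day 6 IND. At day 14 CTRL had dropped to 0.216, 0.213 and 0.828 CPM, while IND held 1.87, 2.38 and 3.74. FSHR fell by 3.53 on the log2 scale in CTRL (adjusted p = 2.11e-06) and did not pass the test in IND (log2 change -0.28, adjusted p = 0.541), and the induction effect was higher at day 14 by 3.25 (SE 0.53, adjusted p = 0.00251).

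FIBIN, a secreted factor first described in the fin bud, had both arms moving apart. It was at 11.9, 12.3 and 11.1 CPM in day 6 CTRL, 11.5, 11.7 and 15.1 in day 6 IND, 2.78, 2.74 and 4.26 in day 14 CTRL, and 24.1, 27.5 and 30.7 in day 14 IND. The day 6 groups overlapped and the day 14 groups lay far apart (log2 difference 2.97, SE 0.24, adjusted p = 1.62e-06). ESM1, a secreted proteoglycan of endothelium, was at 1.32 to 2.22 CPM in day 14 CTRL and at 6.37 to 8.57 in day 14 IND, with a log2 difference of 2.54 (adjusted p = 0.000533). SYNPO2, an actin-binding protein of muscle, had a log2 difference of 2.46 (adjusted p = 0.0181) and rose in both arms, to 4.84 to 12.9 CPM in CTRL and 36.1 to 42.7 in IND. MFAP5, a component of elastic microfibrils, had a log2 difference of 2.44 (adjusted p = 0.00679). The call of SYNPO2 was lost without CTRL replicate 1 or 3 or IND replicate 2 or 3 at day 6, or CTRL replicate 1 at day 14 (adjusted p up to 0.0793).

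Genes whose induction effect grew downward were led by CALB2, TM4SF1 and SOST. CALB2 codes for calretinin, a calcium-binding protein of neurons that also marks mesothelium. It was at 9.27, 9.4 and 7.18 CPM in day 6 CTRL and 5.3, 5 and 5.08 in day 6 IND, and at 16.2, 11 and 19.9 CPM in day 14 CTRL and 0.656, 1.09 and 0.909 in day 14 IND. IND lay below CTRL on both days, by 0.75 on the log2 scale at day 6 and by 4.12 at day 14, and CALB2 rose in CTRL and fell in IND (log2 difference -3.38, SE 0.31, adjusted p = 9.32e-06).

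TM4SF1, a membrane protein of the tetraspanin type, rose in both arms, but from similar day 6 levels (1.41, 2.74 and 1.48 CPM in CTRL, 2.01, 3.82 and 3.1 in IND) to 58.8, 40.9 and 65.7 CPM in CTRL and 7.24, 7.38 and 10.6 in IND. Its log2 difference was -3.37 (SE 0.41, adjusted p = 0.0009). SOST, the secreted WNT inhibitor sclerostin, was at 4.21 to 6.68 CPM in all day 6 libraries and then at 8.67, 12.2 and 17.6 CPM in CTRL and 1.72, 0.693 and 1.42 in IND, a log2 difference of -3.36 (SE 0.43, adjusted p = 0.00046). SLC6A3, the dopamine transporter, and CHST8, a sulfotransferase that acts on hormone glycans, rose in CTRL to 4.02 to 8.92 and 12.2 to 20.2 CPM and reached 0.791 to 1.88 and 2.47 to 3.34 CPM in IND (log2 differences -3.14 and -3.04, adjusted p = 0.00532 and 0.000178). NRN1, which promotes neurite growth, had a log2 difference of -2.97 (adjusted p = 0.00125). All 6 of these calls stayed past the threshold on leaving out any 1 of the 12 libraries.

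**Figure D3:**
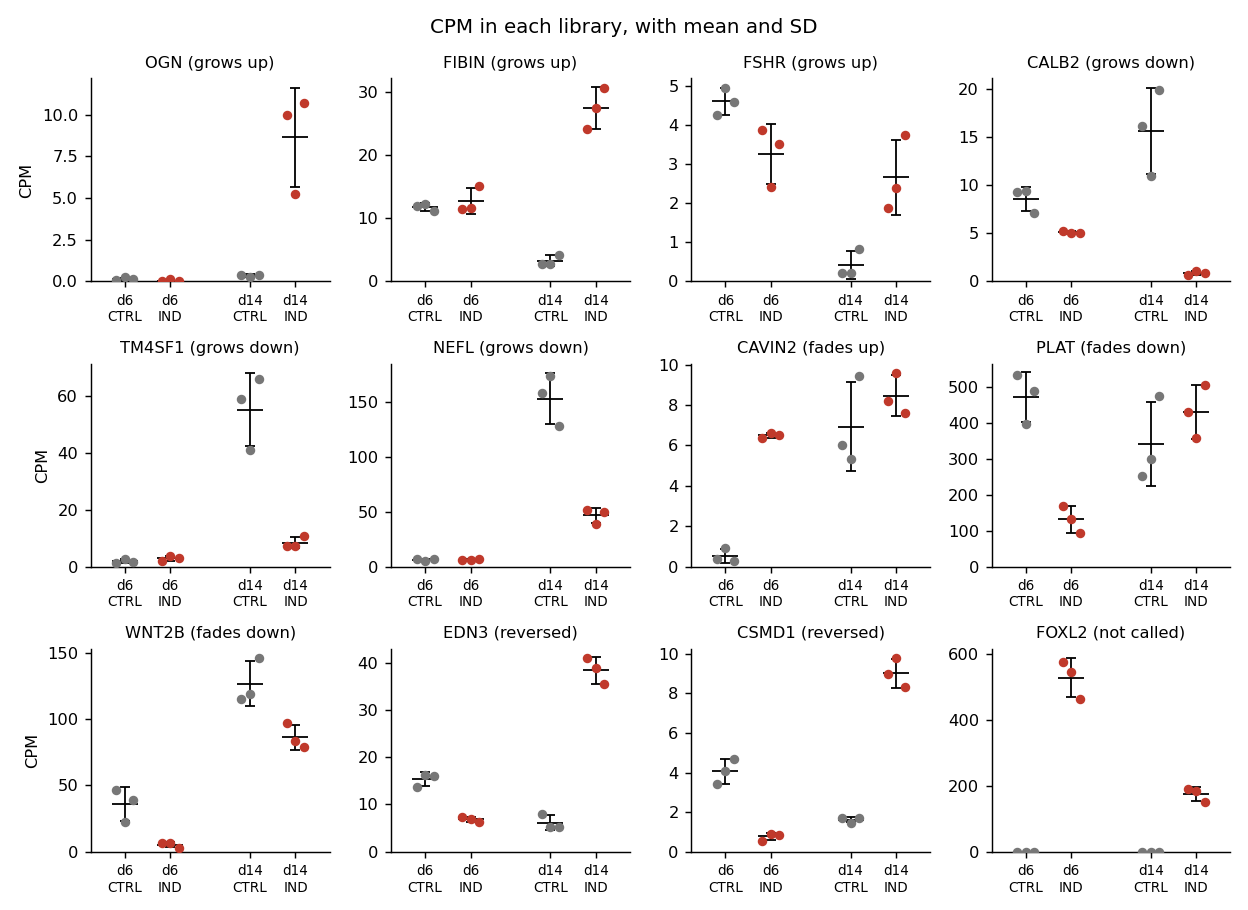
CPM of 12 genes in each library of the 4 groups (y axes start at 0 and differ between panels). Grey points are CTRL and red points IND, with the mean and SD over 3 libraries. OGN and FIBIN separate at day 14, CAVIN2 at day 6 and CALB2 at both, while EDN3 and CSMD1 change sides. FSHR changes sides as well, although its day 6 effect did not pass the test.

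Genes that were higher in IND at day 6 and faded include CAVIN2, which codes for a coat protein of caveolae. CAVIN2 was at 0.361, 0.905 and 0.287 CPM in day 6 CTRL and at 6.37, 6.6 and 6.5 in day 6 IND. By day 14 CTRL had reached 6, 5.33 and 9.44 CPM, and IND was at 8.21, 9.58 and 7.61, so that the groups overlapped. Its log2(IND/CTRL) went from 3.64 to 0.30, a difference of -3.35 (SE 0.41, adjusted p = 0.000211), and the change over time passed the test in CTRL (3.73, adjusted p = 5.29e-08) and not in IND (0.38, adjusted p = 0.261).

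LAMA3, a chain of the basement membrane protein laminin, was at 0.346 to 0.455 CPM in day 6 CTRL and 0.857 to 2.1 in day 6 IND, and at 4.55 to 7.04 CPM in day 14 CTRL and 2.97 to 3.87 in day 14 IND (log2 difference -2.87, SE 0.44, adjusted p = 0.00132). FRMPD1, a scaffold protein of G protein signalling, had 0 counts in all 3 day 6 CTRL libraries and 0.118 to 0.348 CPM in day 6 IND, at least 2.87-fold higher, while both arms lay between 5.53 and 7.65 CPM at day 14 (adjusted p = 0.00204, and 0.445 with limma-trend on log2(FPKM + 1)). SLC17A8, a vesicular glutamate transporter, and ISL1, a homeobox factor of motor and sensory neurons and of heart progenitors, had log2 differences of -3.24 and -2.21 (adjusted p = 0.0322 and 0.0296). Their calls were among the least stable of those named. SLC17A8 lost its call without 8 of the 12 libraries (all but CTRL replicate 2 and IND replicate 1 at day 6, CTRL replicate 3 and IND replicate 2 at day 14, adjusted p up to 0.12). ISL1 lost it without 9 (all but CTRL replicate 2 and IND replicate 1 at day 6 and CTRL replicate 3 at day 14, adjusted p up to 0.0871).

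Genes that were lower in IND at day 6 and faded include the WNT ligands WNT2 and WNT2B and the protease PLAT. WNT2 was at 2.56, 3.57 and 2.42 CPM in day 6 CTRL and 0.535, 0.236 and 0.684 in day 6 IND. At day 14 it was at 1.95, 2.84 and 2.86 CPM in CTRL and 3.84, 4.68 and 4.19 in IND. CTRL was above IND at day 6 and IND above CTRL at day 14, although the day 14 effect did not pass the test (0.74, adjusted p = 0.144); the log2 difference was 3.29 (SE 0.43, adjusted p = 0.000329).

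PLAT, tissue plasminogen activator, was at 533, 396 and 488 CPM in day 6 CTRL and 169, 132 and 93.2 in day 6 IND, and the day 14 groups overlapped at 252 to 474 CPM in CTRL and 357 to 506 in IND (log2 difference 2.18, SE 0.38, adjusted p = 0.0167). SLC5A7, the choline transporter of cholinergic neurons, fell in CTRL from 24.7 to 31.8 CPM at day 6 to 5.3 to 10.3 CPM at day 14 and was at 7.09 to 8.27 and then 8.18 to 13.2 CPM in IND (log2 difference 2.50, adjusted p = 0.000533). CNTN5, a neural adhesion molecule, had a log2 difference of 2.79 (adjusted p = 0.0215). WNT2B rose in both arms, from 22.2 to 46.8 CPM to 115 to 146 CPM in CTRL and from 3.01 to 6.96 to 78.9 to 96.8 CPM in IND, a log2 difference of 2.19 (adjusted p = 0.0295), and the opposite-strand gene ST7L, which overlaps it, had 15.2% of its counts. The call of PLAT was lost without CTRL replicate 1 or 3 at day 6 or CTRL replicate 2 or IND replicate 3 at day 14 (adjusted p up to 0.0559), and that of CNTN5 without IND replicate 3 at day 6 or CTRL replicate 1, IND replicate 1 or IND replicate 3 at day 14 (up to 0.0633). WNT2B kept its call only without CTRL replicate 2, IND replicate 1 or IND replicate 3 at day 6 and lost it without the other 9 libraries (up to 0.0926).

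Of the 34 reversed genes, 23 were lower in IND at day 6 and higher at day 14, and 11 the other way round. EDN3 codes for endothelin 3, a ligand that acts on neural crest cells through the receptor EDNRB. It was at 13.8, 16.3 and 16.1 CPM in day 6 CTRL and 7.44, 6.84 and 6.2 in day 6 IND, and at 8.02, 5.3 and 5.22 CPM in day 14 CTRL and 40.9, 38.8 and 35.4 in day 14 IND. The groups were separate on both days and in opposite order, with log2(IND/CTRL) of -1.18 and 2.62 and a difference of 3.80 (SE 0.22, adjusted p = 2.04e-08). EDNRB itself had a difference of -0.94 (SE 0.18, adjusted p = 0.00724), with 44.5 to 62.6 CPM in day 14 CTRL and 32.3 to 38.3 in day 14 IND.

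CSMD1, a large membrane protein with complement control domains, was at 3.43, 4.07 and 4.69 CPM in day 6 CTRL and 0.562, 0.92 and 0.843 in day 6 IND, and at 1.7, 1.46 and 1.7 CPM in day 14 CTRL and 8.96, 9.8 and 8.34 in day 14 IND. Its effects of -2.38 and 2.48 were close in size (log2 difference 4.86, SE 0.32, adjusted p = 8.12e-08). RSPO2, a secreted amplifier of WNT signalling, rose in both arms and changed sides, from 0.958 to 2.56 CPM in CTRL and 0.433 to 0.731 in IND to 9.54 to 12.1 CPM in CTRL and 23.9 to 32.5 in IND (log2 difference 2.92, adjusted p = 0.000671). CHRM2, a muscarinic acetylcholine receptor that was added after its values were seen, had a log2 difference of 2.73 (adjusted p = 0.000211) and did the same, ending at 16.9 to 32.6 CPM in CTRL and 49.8 to 69 in IND. In the opposite direction, the GABA transporter SLC6A13 and the F-box protein FBXL16 went from higher to lower in IND, with log2 differences of -3.06 and -3.02 (adjusted p = 0.00135 and 0.0009). FBXL16 is overlapped on the opposite strand by Z92544.2, which had 14.8% of its counts. All 6 reversed genes named here kept their calls on leaving out any 1 of the 12 libraries.

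Of 32 genes of stroma and extracellular matrix tested, 11 had a higher and 1 a lower induction effect at day 14, against 1.33% and 1.28% of all genes. Members of this and the other gene lists were chosen with earlier results of these data known, so their shares are descriptions and no test. The list had a median log2 difference of 0.94 against 0.02 over all genes. The induction effect passed the test upward in 2 and downward in 7 of them at day 6, against 1.46% and 2.54% of all genes. At day 14 it did so upward in 10 and downward in 2, against 2.89% and 4.43%. The median stayed between 0.69 and 1.01, and the number higher between 5 and 16, under 21 other settings. For day 12 minus day 8, however, the median of the list was 0.05, with 17 of 32 positive. COL3A1, a fibrillar collagen chain, was at 6690, 5140 and 6980 CPM in day 6 CTRL and 5150, 4550 and 3450 in day 6 IND, and at 10700, 10900 and 13700 CPM in day 14 CTRL and 20200, 18300 and 21900 in day 14 IND. The groups overlapped at day 6 and were separate at day 14 (log2 difference 1.29, SE 0.21, adjusted p = 0.00254).

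COL1A2, which pairs with the main chain of type I collagen, was at 2360 to 3560 CPM in day 6 CTRL and 1190 to 1630 in day 6 IND, and the day 14 groups overlapped at 3250 to 4460 and 4250 to 5030 CPM (log2 difference 1.46, SE 0.23, adjusted p = 0.00229). PRELP, a leucine-rich proteoglycan, was at 12.2 to 20.1 CPM in all day 6 libraries and then at 11.2 to 16.1 CPM in CTRL and 40 to 46.8 in IND (log2 difference 1.60, adjusted p = 0.000981). OGN and MFAP5, above, belong to the same list. COL6A3, SFRP1 and PDGFRB, added to show the direction of the group, had differences of 1.23, 0.95 and 0.67 and passed the test downward at day 6 and not at day 14. PDGFRB, the PDGF receptor of mural and stromal cells, lost its call without IND replicate 2 at day 14 (adjusted p = 0.067), and SFRP1, a secreted WNT antagonist, without CTRL replicate 1 or 3 at day 6 or CTRL replicate 1 at day 14 (up to 0.0612). The summed level of the 32 genes was 15330 to 20420 CPM in day 6 CTRL and 9738 to 12360 in day 6 IND. It was 24890 to 31990 in day 14 CTRL and 33750 to 38870 in day 14 IND, so the order of the arms in the sum was opposite on the 2 days. COL3A1, at the levels given above, made up a large part of this sum and most of its gap between the arms at day 14. The opposite order in the sum is therefore largely that of COL3A1 at day 14. The sum of the other genes was not formed, so their order at day 14 is not given. The 1 lower member was TNC, the matrix protein tenascin C (log2 difference -1.76, adjusted p = 0.0377).

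**Figure D4:**
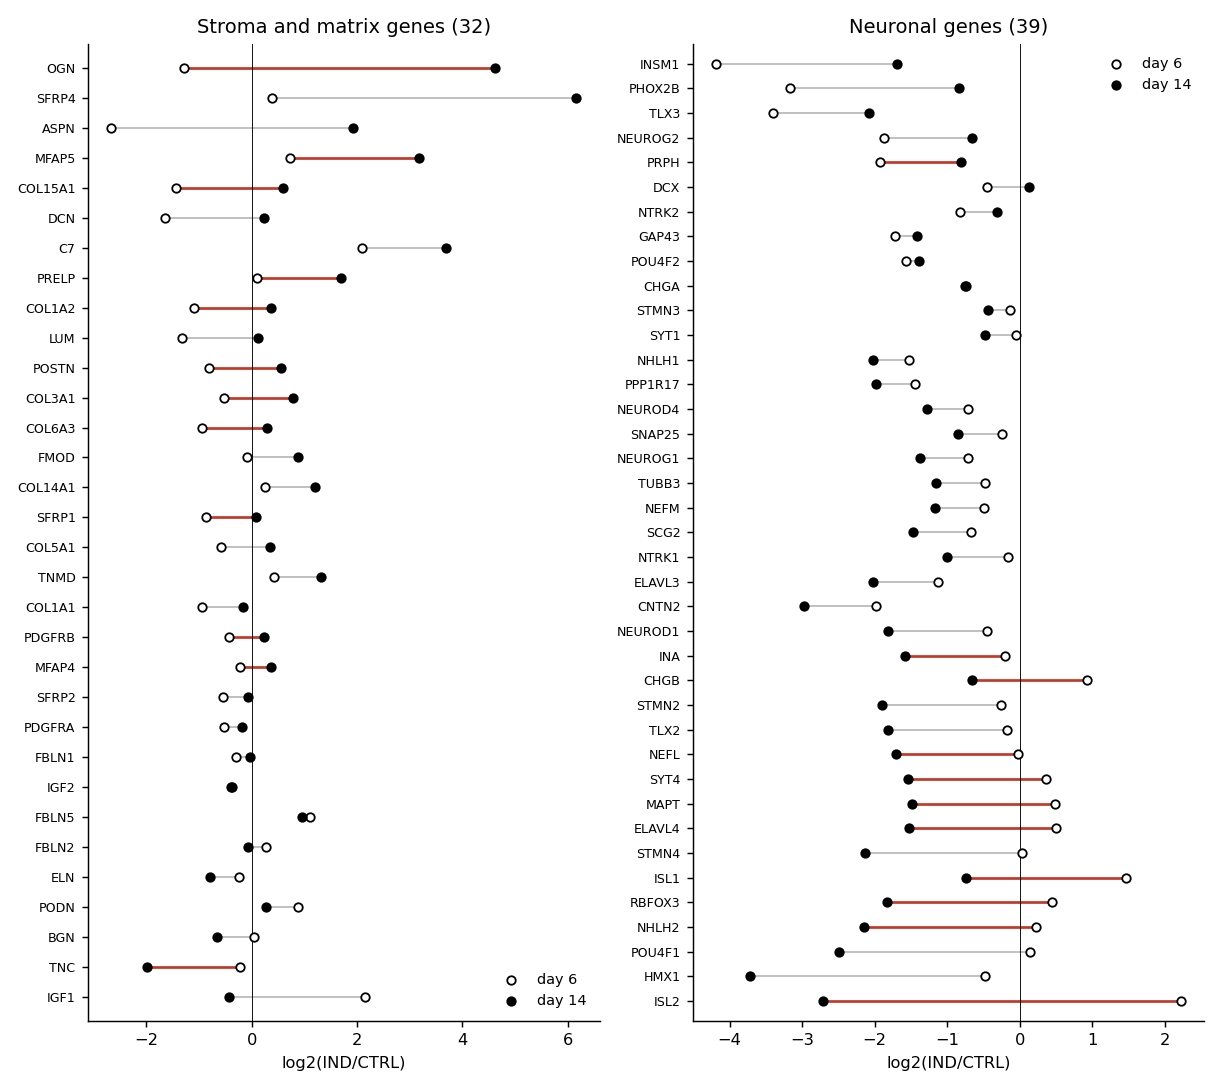
log2(IND/CTRL) at day 6 (open) and day 14 (filled) for 32 stroma and matrix genes and 39 of the 40 neuronal genes, ordered by the difference between the days. Red lines mark genes whose effect differed between the days, 12 on the left, of which 11 rose, and 11 on the right, of which 10 fell. The neuronal gene that is not drawn was also called, with a higher effect at day 14.

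Of 40 neuronal genes tested, 10 had a lower and 2 a higher induction effect at day 14, against 1.28% and 1.33% of all genes. This list, too, was chosen with earlier results of these data known. All 40 rose in CTRL from day 6 to day 14 and 37 rose in IND, against 21% and 21.6% of all genes. The median changes of the 40 genes were 4.55 and 3.28 on the log2 scale. Their summed level went from 194.1 to 236.7 CPM in day 6 CTRL and 126.2 to 158.2 in day 6 IND to 1420 to 2330 CPM in day 14 CTRL and 777 to 918.6 in day 14 IND. The median log2 difference between the days was -0.74. At day 14 IND was lower in 31 of the 40 and higher in none, against 4.43% and 2.89% of all genes. At day 6 it was lower in 6 and higher in 1, against 2.54% and 1.46% of all genes. NEFL, the light neurofilament subunit, was at 6.62, 5.38 and 7.16 CPM in day 6 CTRL, 6.05, 6.2 and 6.54 in day 6 IND, 158, 174 and 128 in day 14 CTRL, and 51.9, 39.1 and 49.7 in day 14 IND. The day 6 groups overlapped and the day 14 groups did not (log2 difference -1.68, SE 0.19, adjusted p = 7.82e-05).

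The RNA-binding protein ELAVL4, the microtubule protein MAPT and the intermediate filament INA gave differences of -2.03, -1.98 and -1.38 (adjusted p = 0.00122, 0.00329 and 0.00632). The members that were higher included PRPH, peripherin of peripheral neurons. PRPH was at 6.2 to 7.09 CPM in day 6 CTRL and 1.63 to 1.91 in day 6 IND, and at 17.3 to 19.4 and 7.6 to 12.6 CPM at day 14, so IND stayed below CTRL while the gap narrowed (log2 difference 1.12, SE 0.25, adjusted p = 0.02, and up to 0.0744 without CTRL replicate 3 or IND replicate 3 at day 6, or CTRL replicate 1, IND replicate 1 or IND replicate 3 at day 14). The defining markers did not all share 1 pattern. STMN2 went from 1.38 to 1.94 CPM in day 6 CTRL to 180 to 287 CPM in day 14 CTRL, and from 0.669 to 2.19 to 45.1 to 75.2 CPM in IND. NEUROD1, ELAVL3 and ELAVL4 were likewise lower in every day 14 IND library than in any day 14 CTRL library. DCX, a microtubule protein of young neurons, overlapped between the arms on both days, with 36.6 to 45.1 CPM in CTRL and 23.5 to 42.7 in IND at day 6 and 129 to 248 and 206 to 250 CPM at day 14. The number of neuronal genes called lower lay between 4 and 20 under the 21 other settings, and the median between -0.95 and -0.65.

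SLC6A3, NRN1, CNTN5, SLC5A7, SLC17A8 and ISL1, described above for their growing or fading effects, are also known from neurons, and the part of neuronal cells in their differences was not tested. Neural crest and glial genes were lower in IND in 8 of 20 cases at day 6 and in 11 at day 14, against 2.54% and 4.43% of all genes. Their induction effect differed between the days in 3, against 2.61% of all genes. EDNRB and ETS1, a transcription factor of migrating crest, were lower at day 14, and TWIST1, a factor of mesenchyme, was higher. The summed level of this list was 441.3 to 613.7 CPM in day 6 CTRL, 321.7 to 362.1 in day 6 IND, 1040 to 1603 in day 14 CTRL and 714.3 to 784.1 in day 14 IND. Blood markers were at or near 0, with PTPRC at no more than 0.5 CPM and HBE1 at no more than 0.0803 CPM in any library.

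Gonadal markers that the study followed gave 1 call. Of 15, 14 were tested, and 8 rose in CTRL and 8 in IND, against 21% and 21.6% of all genes. Only RSPO1 differed between the days, against 2.61% of all genes. RSPO1, the R-spondin of ovary determination, was at 4.78, 2.5 and 3.97 CPM in day 6 CTRL and 1.28, 1.77 and 1.98 in day 6 IND, and at 31.7, 36.2 and 35.9 CPM in day 14 CTRL and 32.3, 40.4 and 41.2 in day 14 IND. IND was below CTRL at day 6 and overlapped with it at day 14 (log2 difference 1.28, SE 0.27, adjusted p = 0.0152, and up to 0.0602 without CTRL replicate 3 at day 6 or IND replicate 3 at day 14). GATA4, a factor of the coelomic epithelium and early gonad, was at 174 to 251 CPM in day 6 CTRL, 108 to 135 in day 6 IND, 296 to 351 in day 14 CTRL and 200 to 250 in day 14 IND. It was lower in IND on both days, by 0.83 and 0.55 on the log2 scale, and the difference between the days did not pass the test (0.28, SE 0.18, adjusted p = 0.609).

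LHX9, a homeobox factor of the early gonad, was at or below 0.0535 CPM in every day 6 library and then at 9.86, 5.72 and 6.29 CPM in CTRL and 1.47, 2.8 and 3.36 in IND. The day 14 groups were separate (adjusted p = 0.00459), and the day 6 levels lay below the floor of 3 counts (log2 difference -1.69, SE 1.07, adjusted p = 0.614). GATA2 was lower in IND by 1.36 at day 6 and 1.30 at day 14, a difference of 0.06 (SE 0.25, adjusted p = 0.968). OSR1, a factor of intermediate mesoderm, was at 4.12 to 7.22 CPM in day 6 CTRL and 8.21 to 12.9 in day 6 IND, and at 5.09 to 7 and 14.9 to 22.6 CPM at day 14 (log2 difference 0.77, SE 0.32, adjusted p = 0.306). SOX9, WNT4, INHBA, NR0B1, UPK3B, LGR5, TAC1 and DHH did not pass the test either, with log2 differences between -2.59 and 0.58. TSPAN8 was too low to be tested.

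The other gonadal lists are set against 1.33% higher and 1.28% lower over all genes tested. Of 25 ovary and granulosa genes, 4 had a higher effect at day 14 and none a lower one (median 0.13): FSHR, RSPO1, WNT2B and NOTCH2, a receptor of supporting-cell precursors. Under 21 other settings 1 to 6 of this list were higher and 0 to 1 lower, with medians from -0.04 to 0.24. Of 28 coelomic epithelium and mesothelium genes, 4 were higher and 2 lower, CALB2 and MSLN being the lower ones, with a median of 0.00. MSLN, mesothelin, was at 0.503 to 0.963 CPM in day 6 CTRL and 1.47 to 2.23 in day 6 IND and overlapped at day 14 (log2 difference -1.85, adjusted p = 0.0296). HAND2, a factor of lateral mesoderm, had a difference of 0.66 (adjusted p = 0.0262), and TCF21, a factor of coelomic epithelium and gonadal stroma, of 1.10 (adjusted p = 0.0314). HAND2-AS1 and TARID, on the opposite strands of these genes, had 30.4% and 8.91% of their counts. None of the 14 testis pathway genes tested was called, 8 of them having positive differences. The calls of NOTCH2, MSLN, HAND2 and TCF21 were each lost without 6 to 8 of the 12 libraries (adjusted p up to 0.118).

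Genes of WNT and BMP signalling held 15 calls among 59 tested, 11 higher and 4 lower at day 14, against 1.33% and 1.28% of all genes, with a median of 0.17. At day 6 the induction effect was downward in 16 and upward in 2 (2.54% and 1.46% of all genes), and at day 14 downward in 11 and upward in 6 (4.43% and 2.89%). The members called higher included the ligands WNT2, WNT2B and BMP4 and the R-spondins RSPO1 and RSPO2, while other ligands of the list, such as WNT4 (-0.54), were not called. BMP4, added to show that direction, was at 169 to 213 CPM in day 6 CTRL and 103 to 122 in day 6 IND and overlapped at day 14, at 84.6 to 136 and 130 to 166 CPM (log2 difference 1.36, SE 0.23, adjusted p = 0.00604). Among receptors, FZD8 reversed, from 79.4 to 96.4 CPM in CTRL and 53.6 to 63.3 in IND at day 6 to 46 to 59.6 and 71.5 to 88.7 CPM at day 14 (log2 difference 1.23, SE 0.16, adjusted p = 0.000306). BAMBI, a decoy receptor that dampens TGF-beta and BMP signals, had a difference of 0.74 (adjusted p = 0.00188). Members called lower included GREM1, DKK1 and FZD4, of which GREM1 and DKK1 are secreted antagonists of BMP and WNT. The WNT antagonist SFRP1, also of this list, was called higher (0.95), so secreted antagonists went in both directions. Scaling to PPIG left 3 higher and 1 lower. For day 12 minus day 8 the median of the list was 0.003, with 30 of 59 positive.

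Interferon response genes were higher in IND in 8 of 41 cases at day 6 and in 16 at day 14, against 1.46% and 2.89% of all genes, and none was lower. Their median difference between the days was 0.03, and 1 was called, PSMB9, an immunoproteasome subunit. PSMB9 was at or below 0.12 CPM on day 6, had 0 counts in day 14 CTRL and was at 1.19, 0.644 and 0.89 CPM in day 14 IND, at least 8.72-fold higher (adjusted p = 0.0255). It is overlapped by TAP1 and PSMB8 on the opposite strand, with 1090% and 899% of its counts, and its call was lost without CTRL replicate 1 or 2 at day 6, or CTRL replicate 1 or IND replicate 1 or 3 at day 14 (adjusted p up to 0.0889). With 2.61% of all genes called, 1 call in a list of this size is near the background. Single calls came from EYA1 among 21 nephron genes (log2 difference -1.65, adjusted p = 0.00442), ACTC1 among 25 muscle and heart genes (-1.47, adjusted p = 0.0152, and up to 0.0552 without CTRL replicate 1 at day 6 or IND replicate 3 at day 14) and FOXF2 among 34 other forkhead genes (0.81, adjusted p = 0.0429). Among 8 caveolar genes, EHD2 had a difference of 0.82 (adjusted p = 0.0214) beside that of CAVIN2. No member was called among 35 cell cycle, 24 cholesterol synthesis, 23 retinoic acid, 21 endothelium and blood, 19 IGF system and 13 pluripotency genes, whose medians lay between -0.30 and 0.16.

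Days 8 and 12 offered the same kind of contrast in 12 libraries that the comparison above did not use, although they came from the same differentiation. The induction effect at day 12 minus that at day 8 passed the test in 31 of 21058 genes (0.147%), higher at day 12 in 0.0617% and lower in 0.0855%, with 1911 at an unadjusted p under 0.05 and 275 called by DESeq2. Of the 533 called genes present in both fits, 461 (86.5%) had a difference of the same sign there, against 55.5% of the genes that were not called. A total of 12 were called in both fits, 11 with the same sign, and EDN3 (2.38, adjusted p = 0.000328) and WNT2B (1.96, adjusted p = 0.0338) were among them. The daily effect passed the test in 2204 genes (10.5%, with 5.41% up and 5.06% down) at day 8 and in 1972 (9.36%, with 4.11% up and 5.25% down) at day 12.

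The median induction effects of the classes at days 8 and 12 lay between those at days 6 and 14 in each of the 4 classes that grew or faded. The classes were chosen by day 6 and day 14 effects that lay apart. That choice alone favours medians between them on other days, so this order is no test of a gradual course. For the genes that grew downward they were 0.26, -0.04, -0.81 and -1.25 on days 6, 8, 12 and 14, and for those that grew upward -0.18, 0.25, 0.55 and 0.89. For the upward fading genes the medians were 1.21, 0.58, -0.11 and -0.28, and for the downward fading genes -0.86, -0.73, -0.28 and 0.19. The sign was the same in 169 of 184 genes that grew downward, 88 of 111 that grew upward, 35 of 40 and 99 of 112 of the fading classes and 32 of 34 that reversed. Some of the named genes with little or no effect at day 6 had one by day 8: log2(IND/CTRL) of FIBIN was 3.13 at day 8 and 3.74 at day 12, and that of PRELP was 1.74 and 1.62. That of CALB2, -0.75 at day 6, was -2.55 and -2.61. SLC6A13, called higher at day 6, was already at -2.33 on day 8, and ACTC1 was at 0.25 and 0.23 on days 8 and 12. For the stroma list the median of day 12 minus day 8 was 0.05, with 17 of 32 positive and that of the neuronal list was -0.41 with 13 of 40 positive.

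**Figure D5:**
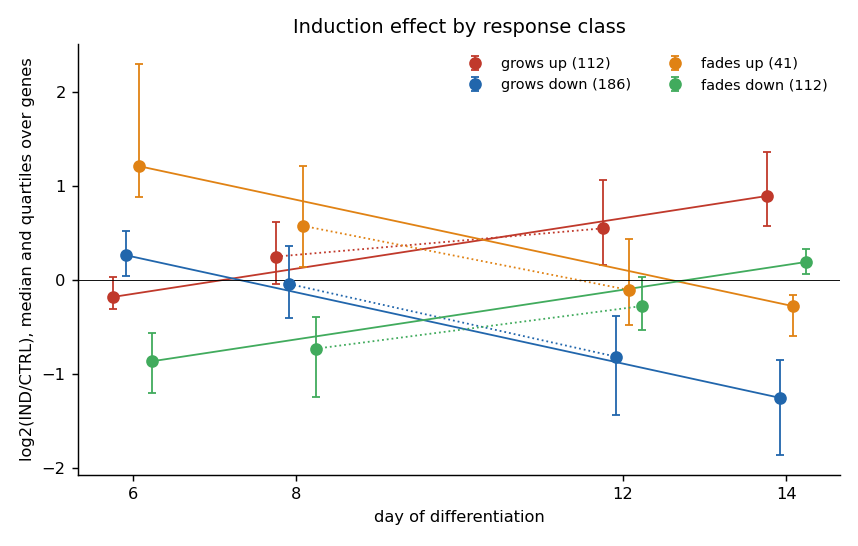
Median log2(IND/CTRL) with quartiles over the genes of each class (y axis) on days 6, 8, 12 and 14 (x axis; points are offset sideways). Solid lines join the days that defined the classes and dotted lines the days that did not. In each class the medians at days 8 and 12 lie between those at days 6 and 14, which the choice of the classes favours.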

How the data were processed

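Polyadenylated RNA of H9-DDdCas9VP192-FOXL2 clone 24 cells was sequenced by a company from libraries that do not keep the strand. The authors' reads were trimmed with fastp 0.23.2, mapped with HISAT2 2.0.5 and counted per gene with featureCounts 1.5.0-p3 on GRCh38, and the authors deposited raw counts and FPKM (fragments scaled to gene length and library size) for 58735 genes. From the counts, 12 libraries in 4 groups were fitted with edgeR 4.0.16 in R 4.3.3 (filterByExpr, TMM, robust quasi-likelihood test, group means, no block), with Benjamini-Hochberg adjustment over the 20584 genes tested and a threshold of 0.05. SE is the log2 difference divided by the root of F. CPM use TMM-scaled library sizes. The same model was fitted to the 12 libraries of days 8 and 12 (21058 genes).

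Named genes were, per class, the 6 (growing) or 5 protein-coding genes with the largest log2 difference at an average log2 CPM of at least 1, the study's markers, and up to 4 called members of each of 23 lists. CHRM2 was added after its values were seen, and PRPH, COL6A3, SFRP1, PDGFRB, BMP4 and TNC to show a group's direction. Some genes that these choices would name are not reported here. Members and lists were chosen with earlier results of these data known, the lists from general knowledge.

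Replicate numbers did not pair the libraries: over 6 pairs the correlation of deviations was -0.14 to 0.105, with 1 over 0.1. Replicates differed by more than counting error (chi-squared per gene 10 to 34.3 over 12 pairs). On simulated interaction data edgeR recovered 165 of 200 changed genes among 20148, with 8 false calls of 173. Alternatives were DESeq2 1.42.0, limma 3.58.1 on log2(FPKM + 1), other scalings and filters, all 33 libraries, each library left out and the replicate number as a block.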

Additional observations from a re-analysis of the deposited data

Results flagged for a closer look

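The induction effect differed between day 14 and day 6 in 57 named genes, by a test of the difference itself (edgeR's quasi-likelihood test, adjusted p under 0.05). The value in parentheses is the log2 difference, day 14 minus day 6, with 3 libraries per group. Effects that grew upward were those of OGN (5.90), FSHR (3.25), FIBIN (2.97), ESM1 (2.54), SYNPO2 (2.46), MFAP5 (2.44), TCF21 (1.10), PRELP (1.60), COL3A1 (1.29), PSMB9 (8.62), EHD2 (0.82) and TFRC (0.49). Effects that grew downward were those of CALB2 (-3.38), TM4SF1 (-3.37), SOST (-3.36), SLC6A3 (-3.14), CHST8 (-3.04), NRN1 (-2.97), NEFL (-1.68), ELAVL4 (-2.03), MAPT (-1.98), INA (-1.38), EDNRB (-0.94), ETS1 (-0.63), EYA1 (-1.65) and ACTC1 (-1.47). Effects that were upward at day 6 and faded were those of FRMPD1 (-6.34), CAVIN2 (-3.35), SLC17A8 (-3.24), LAMA3 (-2.87), ISL1 (-2.21), MSLN (-1.85) and EGLN3 (-1.12). Effects that were downward at day 6 and faded were those of RSPO1 (1.28), WNT2 (3.29), CNTN5 (2.79), SLC5A7 (2.50), WNT2B (2.19), PLAT (2.18), HAND2 (0.66), NOTCH2 (0.65), COL1A2 (1.46), COL6A3 (1.23), SFRP1 (0.95), PDGFRB (0.67), PRPH (1.12), TWIST1 (1.26), BAMBI (0.74), BMP4 (1.36) and FOXF2 (0.81). Effects that reversed were those of CSMD1 (4.86), EDN3 (3.80), SLC6A13 (-3.06), FBXL16 (-3.02), RSPO2 (2.92), CHRM2 (2.73) and FZD8 (1.23). The values of PSMB9 and FRMPD1 are fitted against a group with 0 counts in every library and are no bounds. EGLN3 is overlapped on the same strand by SPTSSA, which had 311% of its counts.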

How the results depend on the processing

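All 57 named genes that were called kept their direction under 22 alternatives each (21 for PSMB9). Calls were kept by all 57 under DESeq2 and RLE size factors, by 56 with the replicate block and without a filter, by 52 with library totals, by 45 with limma-trend on log2(FPKM + 1), and by 36 when scaled to PPIG or fitted with all 33 libraries. On leaving out each of the 12 libraries in turn, 35 kept their call in every fit and 22 lost it in at least 1, among them FOXF2 and TFRC (9 of 12), TWIST1 (8), EHD2 and ETS1 (4) and EGLN3 (1).

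The count of 537 genes, with 274 higher and 263 lower, moved with the setting. DESeq2 gave 898, with 488 lower, and 1250 at day 6, 326 growing downward, 95 fading upward, 189 fading downward and 69 reversed. Without a filter on low counts it was 1017, with 464 higher and 553 lower, 1367 at day 6, and 341, 109, 217 and 110 in the same 4 classes. Scaled to PPIG it was 165, with 71 higher and 94 lower, 339 at day 6 and 770 at day 14, and classes of 25 (growing up), 70 (growing down), 12 (fading up), 34 (fading down) and 8 (reversed). With all 33 libraries in 1 fit it was 257, with 140 and 117, 464 and 861, and classes of 60, 82, 19, 57 and 14. A log2 difference of at least 1 left 349, with 145 higher, 330 at day 6, 667 at day 14, 3247 and 3070 for the changes over time in CTRL and IND, 56 growing upward and 58 fading downward. With limma-trend, day 6 had 430 and the classes other than growing upward 286, 25, 66 and 16. With library totals 73 faded downward. The cause of these shifts was not tested. Alternatives for the changes over time were chosen after seeing the data. FOXL2NB, not called at 0.14, took either sign over the alternatives (-3.03 to 2.29) and was called with limma-trend at -0.82 (adjusted p = 0.00876), and FOXL2 (-1.55), LINC01391 (-0.93) and INHBA (-0.69) passed the threshold there.

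Leaving out 1 library gave 316 to 688 genes for the difference between the days (148 to 364 higher and 142 to 333 lower), 437 to 969 for day 6, 877 to 1666 for day 14, 6747 to 8342 and 6914 to 8562 for the changes over time in CTRL and IND, and 62 to 136, 98 to 224, 17 to 62, 54 to 150 and 19 to 60 for the classes growing up, growing down, fading up, fading down and reversed. The day 6 count fell most without day 6 CTRL replicate 1 (437) or 3 (508) or IND replicate 2 (471) or 3 (492), and the day 14 count without day 14 IND replicate 3 (877). The 31 genes of day 12 minus day 8 became 7 (without IND replicate 2 of day 8) to 77 (without IND replicate 3 of day 8), and 275 with DESeq2. The share of called genes with the same sign at day 12 minus day 8 stayed between 80.6% and 93.9%. With the replicate number as a block 545 genes were called, 478 of them among the 537, and of the named genes TFRC lost its call (adjusted p = 0.0518); the numbers do not pair the libraries.

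The limits are 1 biological replicate of 1 clone, no group with DOX and TMP but without activation, and depth: at day 6 several genes named, such as OGN, LHX9 and FRMPD1, lay near the floor of 3 counts, where a log2 difference is imprecise. Another differentiation was not analysed here.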

Other observations

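Genes of glycolysis and the response to low oxygen mostly had negative differences between the days, and 1 of 30 was called, against 2.61% of all genes. The median log2 difference was -0.42, with 5 of 30 positive, and it lay between -0.53 and -0.30 under 21 other settings, with 0 to 11 members called lower, the 11 without IND replicate 1 at day 6. The summed level of the 30 genes was 11190 to 13060 CPM in day 6 CTRL and 10890 to 15550 in day 6 IND, which overlapped, and 8549 to 8839 in day 14 CTRL and 7374 to 7890 in day 14 IND, which did not. The called member was EGLN3, an oxygen-sensing prolyl hydroxylase (9.36 to 12.5 CPM in day 6 CTRL, 17.7 to 23.5 in day 6 IND, overlapping at day 14), whose counts can be shared with SPTSSA. At day 12 minus day 8 the median of the list was -0.07, with 12 of 30 positive.

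Of 12 genes often used as references, 1 was called. TFRC, the transferrin receptor, was at 118 to 136 CPM in all day 6 libraries, at 66.1 to 67.4 in day 14 CTRL and at 80.9 to 98.6 in day 14 IND (log2 difference 0.49, SE 0.12, adjusted p = 0.0371). The median of the 12 was 0.01.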
